A study of Homo sapiens with 6 samples.

Results

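The receptors and ligands of the platelet-derived growth factor (PDGF) family were examined in PC9 cells, a line from a human lung adenocarcinoma with an activating EGFR mutation. The family was taken by gene symbol: the receptor kinase genes PDGFRA and PDGFRB, the receptor-like gene PDGFRL, and the ligand genes PDGFA, PDGFB, PDGFC and PDGFD, 7 of the 26485 genes in the authors' deposited table. The family was selected on the log2 fold changes of this same contrast, so its levels and folds are a description and are not tested further. The resistant PC9 population was made by exposing parental cells to dacomitinib, a covalent inhibitor of EGFR-family kinases, raised from 1 pM to 100 nM over 6 months, and was kept in 100 nM dacomitinib. It was compared with untreated parental PC9 cells, with 3 libraries in each group. All libraries come from 1 cell line, and since resistant cells alone were in drug, acquired resistance and exposure to dacomitinib cannot be told apart.

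PDGFs are secreted as dimers of disulfide-linked chains, and each dimer brings a pair of receptor molecules together so that their kinase domains phosphorylate each other. The beta receptor, encoded by PDGFRB, is bound mainly by the B and D chains, and the alpha receptor, encoded by PDGFRA, by the A, B and C chains. In tissues the receptors are known from fibroblasts and from the mural cells of blood vessels, while epithelial cells, including those of the lung, are better known as a source of the ligands.

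Polyadenylated RNA was sequenced from its 3′ end, per the labels' protocols, so counts are not scaled by transcript length. A normalized count is a read count divided by the size factor of its library, and the mean normalized counts in the authors' deposited table summed to 3965670 per library. Reads per library were recovered from the deposited means, which are sums of whole reads weighted by library, with size factors of 1.06, 1.19 and 1.37 for the libraries taken as resistant and of 0.539, 1.03 and 1.08 for those taken as parental. Libraries are given below in that order and could not be matched to replicate numbers. The direction of the fold change is not stated in the headers and is read as resistant over parental. RPL10, a ribosomal protein gene that nearly all cells use, had a mean normalized count of only 0.571 by the authors' deposited table, and RPL13 had 1.92. Some abundant transcripts are thus nearly uncounted, so a gene at or near 0 is not called absent, and an order of genes by count is an order of counts and need not be one of transcript levels.

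Resistant cells carried abundant PDGFRB transcript that parental cells nearly lacked, and about 2.08-fold more transcript of the ligand gene PDGFB. PDGFD was also higher, at a low level, whereas PDGFC and PDGFRL overlapped between the groups at low levels, and PDGFA lay lower in each resistant library without passing the authors' test. PDGFRA had no read in any library. By the authors' deposited table, 6 members have an adjusted p, of which 3 were called higher and 0 lower at 0.05; of all 13494 tested genes, 13.3% were called higher and 14.8% lower, 28.2% in all. Because the contrast was used in choosing the family, nothing is read from that count.

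The sequences upstream of PDGFRB and PDGFA are shown because they set the receptor gene with the greatest difference beside a ligand gene that was read in both groups. The 250 bases before the RefSeq gene start in GRCh38.p14 were searched, and the letters are printed up to the first base of the GENCODE 29 gene, 5′ to 3′ in the direction of transcription. Capitals mark the CCAAT box, CCAAT, and the GC box, GGGCGG, found on either strand.
PDGFRB (chr5:150155873-150156095, minus strand): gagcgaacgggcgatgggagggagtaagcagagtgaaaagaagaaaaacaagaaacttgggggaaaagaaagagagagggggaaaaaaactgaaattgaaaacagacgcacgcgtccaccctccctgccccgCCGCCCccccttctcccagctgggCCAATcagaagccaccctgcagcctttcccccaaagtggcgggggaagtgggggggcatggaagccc
PDGFA (chr7:520297-520476, minus strand): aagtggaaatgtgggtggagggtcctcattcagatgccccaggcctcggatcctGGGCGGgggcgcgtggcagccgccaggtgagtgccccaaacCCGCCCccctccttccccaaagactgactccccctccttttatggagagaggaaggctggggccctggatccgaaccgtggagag
Of the 7 members, 4 had an entry, PDGFRA and PDGFD being the others, and for PDGFA 1 of 4 listed starts is shown. PDGFRB held 1 CCAAT box at -94 and 1 GC box at -118 on the opposite strand, each position being that of its first printed base counted back from the RefSeq start. PDGFA held 4 GC boxes, 2 of them in the printed letters, and no CCAAT box. PDGFD held 1 GC box at -81 and no CCAAT box, and PDGFRA, read at 1 of 2 listed starts, held neither. The letters TATAAA of the TATA box were in none of the 4 windows. The CCAAT box and the GC box of PDGFRB do not overlap, and among 27305 promoters of the same length 33.0% held a CCAAT box, 42.3% a GC box and 11.1% the TATA letters. Among the 9864 of these that belong to tested genes, 34.9% held a CCAAT box, 67.2% a GC box and 5.17% the TATA letters. The GC content was 58.4% for PDGFRB, 68.8% for PDGFA, 69.2% for PDGFD and 46.8% for PDGFRA, against a median of 58.0% over all promoters. These matches describe letters in a window and not bound sites.

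PDGFRB lies on chromosome 5, from 150113837 to 150155872 on the minus strand of GRCh38. It had 714, 777 and 861 reads in resistant libraries, against 3, 2 and 1 reads in parental libraries. These are normalized counts of 671, 654 and 628 in resistant and of 5.56, 1.93 and 0.922 in parental cells. The resistant libraries lay within a narrow band and the groups were far apart, with every parental library near the limit of what a read count can show. The 6 parental reads have an exact 95% Poisson interval of 2.20 to 13.1 reads, which covers counting error only. In the authors' deposited table the log2 fold change was 8.17 ± 0.60 (SE), a 288-fold difference with a 95% normal interval from 128 to 647. It was the largest rise among 6952 genes whose mean normalized count was 50 or more, a mean that PDGFRB reached through its resistant libraries alone. Among all 13494 tested genes its rise was the 2nd largest, and the family was chosen on these same folds.

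The size of the PDGFRB difference rests on those few parental reads. The ratio of mean normalized counts was 232 over all libraries and 456 without the parental library of size factor 0.539, which carried 3 of the 6 reads, while without the parental library of size factor 1.08 it was 174. Leaving out any 1 resistant library gave ratios from 228 to 236. By fitted level in the authors' deposited table, PDGFRB stood at the 91.8th percentile of tested genes in resistant cells and at the 11.4th percentile in parental cells. In bulk RNA, few cells with much transcript and many cells with little cannot be told apart.

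PDGFRA, the alpha receptor gene on chromosome 4 (54229097 to 54298247, plus strand), had 0 reads in each of the 3 resistant and the 3 parental libraries. For a count of 0 the exact 95% Poisson interval reaches 3.69 reads over a group. This is a normalized count of 1.02 in resistant and 1.39 in parental cells, and covers counting error only. Its exons overlap those of AC058822.1, a gene that GENCODE 29 annotates on the same strand and that has no entry in the authors' deposited table. Whether AC058822.1 was in the annotation used for counting is not known here. If it was, shared reads may have gone uncounted, and the 0 and its limit may not measure PDGFRA. This was not tested. PDGFRL, whose protein resembles the extracellular part of the PDGF receptors but has no kinase domain, had normalized counts of 24.4, 27.8 and 31.3 in resistant and of 22.3, 25.2 and 32.3 in parental libraries. The groups overlapped fully, and the log2 fold change of 0.05 ± 0.34 in the authors' deposited table has a 95% interval from -0.62 to 0.72, which leaves room for changes of either sign. Exons of PDGFRL overlap those of MTUS1 on the opposite strand, and reads of the pair may be mixed, since the strand setting of the counting is not given in the sources used here.

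**Figure D1:**
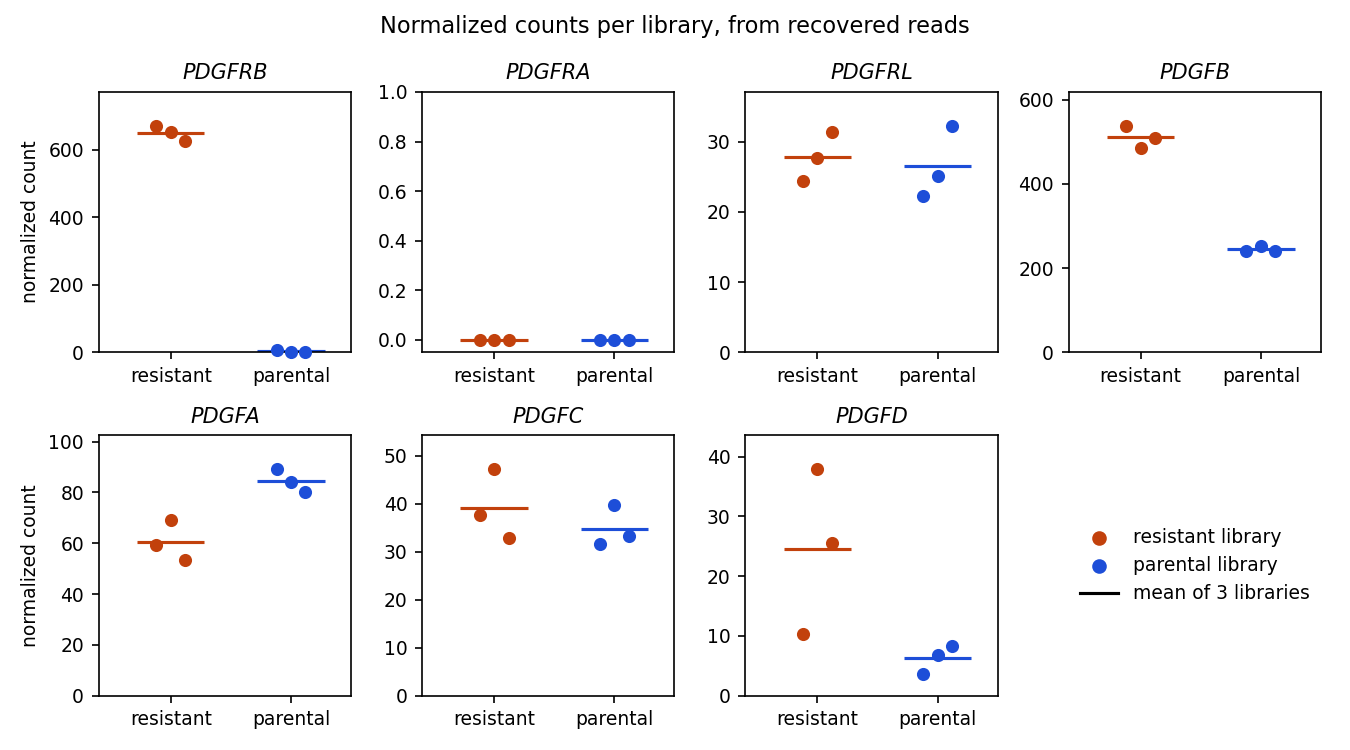
Normalized counts of the 7 genes in each library, on a linear axis per gene, with 3 resistant libraries left of 3 parental ones and a line at their mean. PDGFRB lies between 628 and 671 in resistant libraries and at 5.56 or less in parental ones, PDGFB, PDGFD and PDGFA separate by group, PDGFRL and PDGFC overlap, and PDGFRA is at 0 throughout.

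Among the ligand genes, PDGFB had the highest normalized count in both groups. It encodes the B chain, which binds both receptors, and lies on chromosome 22 from 39223359 to 39244751 on the minus strand. Its reads numbered 572, 578 and 699 in resistant and 130, 262 and 260 in parental libraries, or normalized counts of 538, 486 and 510 in resistant and of 241, 253 and 240 in parental cells. The spread within either group was small beside the gap between them, with means of 511 ± 25.7 in resistant and 245 ± 7.55 in parental cells (SD, n = 3 each). The log2 fold change in the authors' deposited table was 1.06 ± 0.11, and the ratio of means stayed between 2.03 and 2.14 whichever library was left out.

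PDGFA, which encodes the A chain, a ligand of the alpha receptor, lies on chromosome 7 from 497258 to 520296 on the minus strand. Its normalized counts were 59.2, 69.0 and 53.2 in resistant libraries, against 89.0, 84.2 and 80.2 in parental libraries. Every resistant library lay below every parental one, yet the authors' test did not pass, with an adjusted p of 0.0847 from DESeq2 and a log2 fold change of -0.48 ± 0.22 in the authors' deposited table. Its 95% interval ran from -0.90 to -0.06. Groups did not overlap for PDGFRB, PDGFB, PDGFD and PDGFA, 4 of the 6 members with reads, nor for 61.2% of the other 80 listed genes with an adjusted p whose reads were recovered, so a lack of overlap is common in this contrast.

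PDGFC and PDGFD encode the ligands that carry a CUB domain, which proteases must remove before the growth factor can bind its receptor. PDGFC, on chromosome 4 from 156760454 to 156971394, had normalized counts of 37.6, 47.1 and 32.8 in resistant and of 31.5, 39.7 and 33.2 in parental libraries. The groups overlapped, and the log2 fold change of 0.15 ± 0.30 in the authors' deposited table has a 95% interval from -0.43 to 0.74. PDGFD, a ligand of the beta receptor on chromosome 11 from 103907186 to 104164379, had 11, 45 and 35 reads in resistant and 2, 7 and 9 reads in parental libraries. As normalized counts these are 10.3, 37.9 and 25.5 in resistant and 3.71, 6.77 and 8.30 in parental cells. The resistant libraries differed from each other by more than for any other member relative to their mean, and the lowest of them was close to the highest parental one. PDGFD was called higher at a log2 fold change of 1.90 ± 0.56 in the authors' deposited table, and its ratio of means ran from 2.86 to 5.06 when each library was left out in turn.

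**Figure D2:**
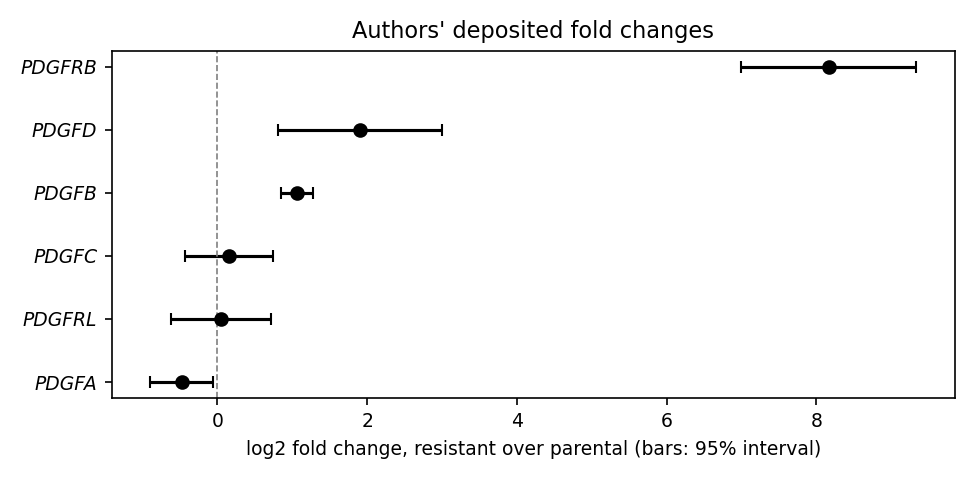
Log2 fold changes of resistant over parental cells in the authors' deposited table for the 6 genes with reads, with bars for the 95% normal interval. PDGFRB stands alone at 8.17, PDGFD at 1.90 has a wide and PDGFB at 1.06 a narrow interval, and the intervals of PDGFC and PDGFRL include 0.

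The order of the members by normalized count differed between the groups. In resistant cells PDGFRB (651 ± 21.9, SD, n = 3) stood above PDGFB, followed at a distance by PDGFA (60.5 ± 7.97), PDGFC (39.2 ± 7.29), PDGFRL (27.9 ± 3.45) and PDGFD (24.6 ± 13.8), all as mean normalized counts. The ranges of neighbours in that order did not overlap, except for PDGFRL and PDGFD. In parental cells PDGFB led, followed by PDGFA (84.5 ± 4.41), PDGFC (34.8 ± 4.30), PDGFRL (26.6 ± 5.15), PDGFD (6.26 ± 2.34) and PDGFRB (2.81 ± 2.44). There the ranges of PDGFC and PDGFRL overlapped, as did those of PDGFD and PDGFRB.

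The makeup of the summed ligand counts differed between the groups. These are shares and ratios of counts of different genes, and need not be those of transcripts. The normalized counts of the 4 ligand genes summed to 621 to 645 in resistant and to 361 to 384 in parental libraries. PDGFB made up 76.0% to 83.4% of that sum in resistant and 66.0% to 66.3% in parental libraries. PDGFA made up 8.57% to 10.8% in resistant and 21.9% to 24.4% in parental libraries, and PDGFD 1.6% to 5.91% in resistant and 1.02% to 2.30% in parental libraries. PDGFC made up 5.28% to 7.36% in resistant and 8.63% to 10.3% in parental libraries, although its counts overlapped between the groups. The share of PDGFB was thus larger, and those of PDGFA and PDGFC smaller, in every resistant library than in any parental one, and shares move together because they add up to the whole. Within a library, the count of PDGFRB was 1.23 to 1.34 times that of PDGFB in resistant cells and 0.00385 to 0.0231 times that of PDGFB in parental cells.

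**Figure D3:**
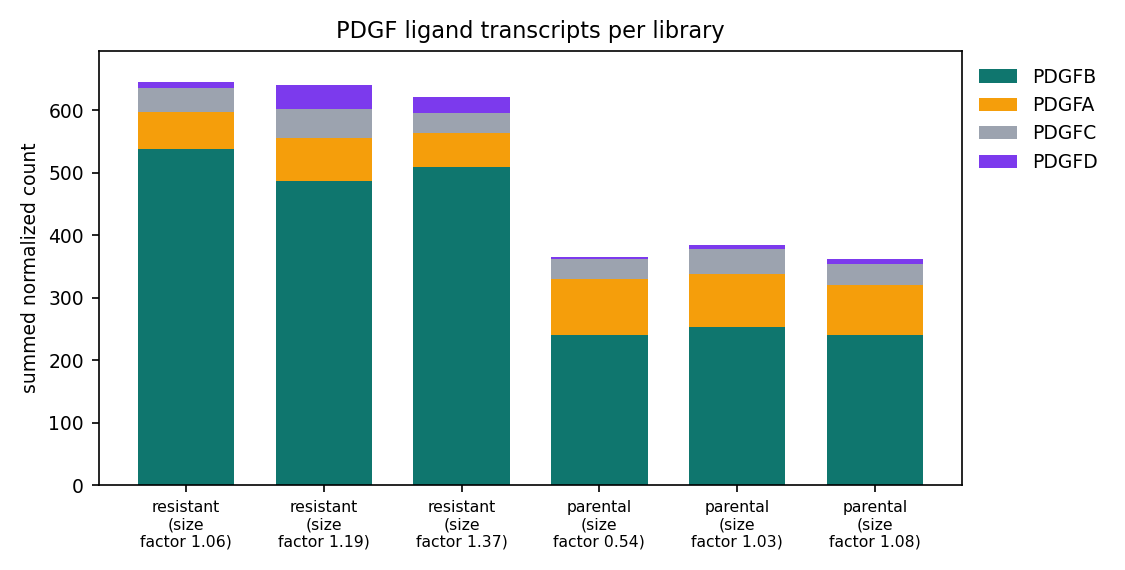
Summed normalized counts of the ligand genes in each library, stacked by gene, with the resistant libraries left of the parental ones and size factors below. The sums are 621 to 645 in resistant and 361 to 384 in parental libraries, and PDGFB is the largest piece in every bar.

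The setting of PDGFRB among the receptor tyrosine kinases was examined with a list of 58 such genes written after the values were seen. Reads were present for 34 of them and 31 were tested, with 5 called higher, PDGFRB among them, and 11 lower by the authors' deposited table. Over all tested genes 13.3% were called higher and 14.8% lower. By fitted mean normalized count from the authors' deposited table, PDGFRB was 3rd of the list in resistant cells, at 651, and 28th in parental cells, at 2.27. Above it in resistant cells stood only DDR1, a collagen receptor, at 1236 in resistant and 1260 in parental cells, and AXL, the receptor for GAS6, at 1095 in resistant and 276 in parental cells, by the authors' deposited table. MET, the receptor for hepatocyte growth factor, came next at 332 in resistant and 303 in parental cells, and EGFR itself was 16th in resistant cells at 88.9 and 7th in parental cells at 216, by the authors' deposited table. The count of PDGFRB thus stood above those of MET and EGFR in resistant cells and below both in parental cells, as an order of counts.

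**Figure D4:**
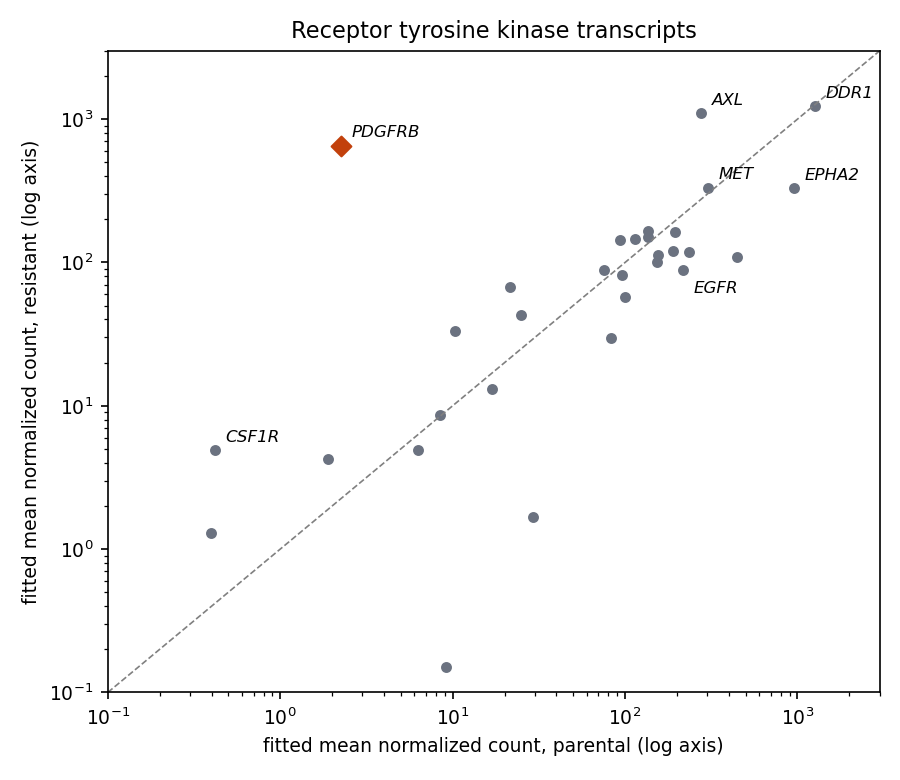
Fitted mean normalized counts from the authors' deposited table for the 31 tested receptor tyrosine kinase genes, resistant cells on the vertical and parental cells on the horizontal log axis, with a dashed line of equal level. PDGFRB, the diamond, lies at 651 against 2.27, far above the line, while DDR1, AXL and MET are high in both groups.

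The receptor genes closest to the PDGF receptors in structure did not share the high count of PDGFRB in resistant cells. This is again a statement on counts and need not hold for transcript levels. KIT, FLT3, FLT1, KDR and FLT4, which encode receptors for stem cell factor, FLT3 ligand and the VEGFs, were all listed at a mean of 0. CSF1R, the receptor gene for colony-stimulating factor 1, starts 42.5 kb from the start of PDGFRB on the same strand. PDGFRB is itself 42.0 kb long, so CSF1R begins just past its end. Whether reads from PDGFRB were counted for CSF1R was not tested. It had 6, 6 and 6 reads in resistant and 0, 0 and 1 reads in parental libraries, and did not pass (adjusted p = 0.0537 by DESeq2 in the authors' deposited table). By the authors' deposited table, 8 of these receptor and ligand genes were tested, with a median log2 fold change of 0.62, against 0.02 over all genes tested. Of the 8, 3 were higher and 2 lower, against 13.3% and 14.8% of all tested genes. The higher ones were KITLG (3.01 ± 0.61), VEGFC (1.13 ± 0.25) and CSF1 (0.74 ± 0.14), and the lower ones VEGFA (-1.45 ± 0.11) and VEGFB (-0.39 ± 0.07), as log2 fold changes in the authors' deposited table. KITLG, which encodes stem cell factor, had a mean count under 20 and is added because it completes the 3 higher genes; its reads numbered 27, 41 and 32 in resistant and 3, 4 and 2 in parental libraries.

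Genes next to the members were also compared. Of all tested genes, 13.3% were called higher and 14.8% lower, at a median log2 fold change of 0.02. Within 1 Mb of the start of PDGFRB, 21 other tested genes had a median log2 fold change of -0.24 by the authors' deposited table, and 2 of them were higher and 5 lower. The higher ones were SLC26A2, a sulfate transporter gene, at 2.16 ± 0.24 and SYNPO, an actin-associated protein gene, at 3.31 ± 1.01, in the authors' deposited table. Within the same distance of PDGFB, 14 of 29 tested genes were lower and 0 higher, with a median of -0.37, in the authors' deposited table, so PDGFB was the called gene that moved the other way there. Around PDGFA 5 of 14 tested genes were lower and 0 higher by the authors' deposited table, and PDGFC and PDGFD had 1 tested neighbour each. Around PDGFRL 2 of 8 tested genes were higher and 0 lower, with a median of 0.36, and around PDGFRA 0 of 5 were higher and 1 lower, with a median of -0.18, by the authors' deposited table.

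**Figure D5:**
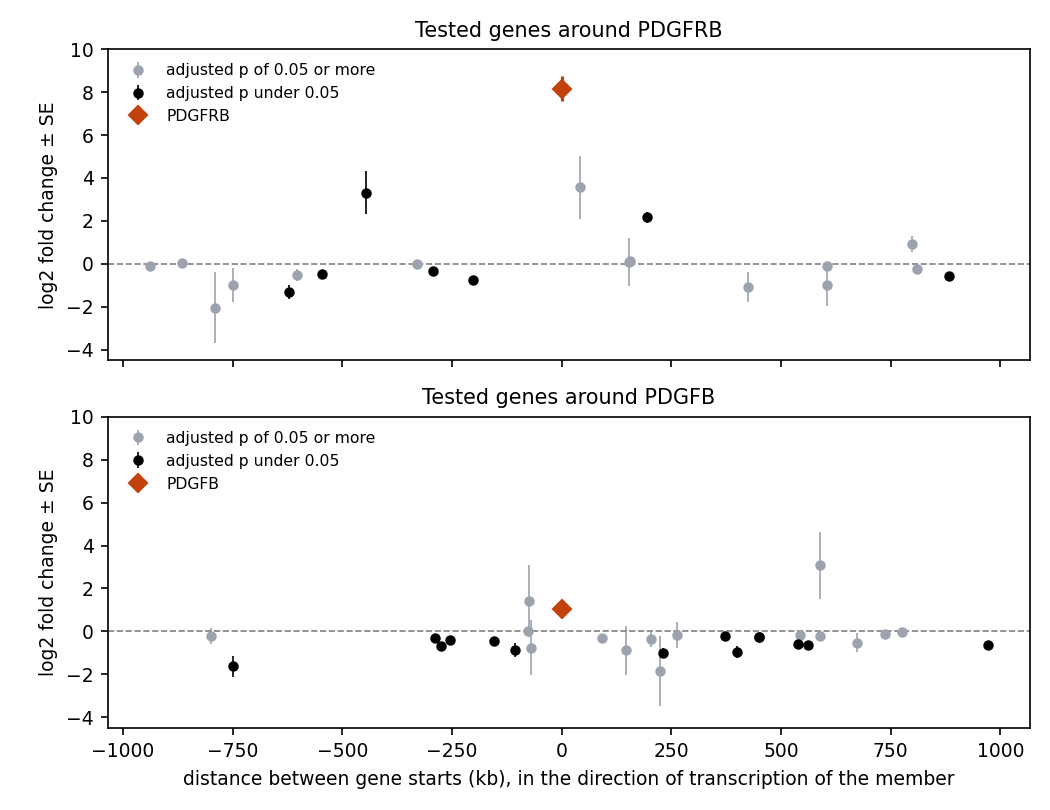
Log2 fold changes with standard errors in the authors' deposited table for tested genes within 1 Mb of PDGFRB (top) and PDGFB (bottom), against the distance between gene starts in kb. The member is the diamond at distance 0, at 8.17 and 1.06. Called higher were 2 of 21 and 0 of 29 neighbours, against 13.3% of all tested genes. Called lower were 5 of 21 and 14 of 29, against 14.8%.

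The genes nearest in fold at a comparable level were taken as the 3 with the smallest difference in log2 fold change among tested genes within 2-fold of the member's mean count, over the 2 groups. For PDGFRB, among 2698 genes, these were IL32, HLA-B and TAGLN, whose log2 fold changes of 7.19, 5.62 and 5.45 in the authors' deposited table were 0.98 to 2.72 below the value of PDGFRB. IL32, a cytokine gene, lay inside the 95% interval of PDGFRB given above, so the folds of PDGFRB and IL32 are not separated here. For PDGFB, among 2496 genes, they were DEGS1, C4orf48 and MYO1D, within 0.01 of its fold in the authors' deposited table. For PDGFD, among 2490 genes, DNHD1, MYLPF and LINC00265 lay within 0.02 in the authors' deposited table.

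Proteases that cut the ligands moved in opposite directions. PDGF-C is known to be activated by tissue plasminogen activator (PLAT) and PDGF-D by urokinase (PLAU) and matriptase (ST14), while furin-type convertases trim the A and B chains. All 7 genes of this list were tested, at a median log2 fold change of 0.05. The authors' deposited table had 2 higher and 2 lower, against 13.3% and 14.8% of all tested genes. PLAU rose by 0.84 ± 0.11 and FURIN by 0.43 ± 0.09, and PLAT fell by 3.38 ± 0.16 and ST14 by 1.13 ± 0.08, on the log2 scale in the authors' deposited table. PLAT had normalized counts of 40.4, 56.4 and 37.9 in resistant libraries, against 466, 447 and 486 in parental libraries. PLAU had 499, 479 and 495 in resistant libraries, against 300.5, 275 and 256 in parental libraries. For neither gene did the groups overlap.

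Of the extracellular partners, LRP1, an endocytic receptor that binds PDGFRB, rose by 1.70 ± 0.18 on the log2 scale in the authors' deposited table, with normalized counts of 199, 187 and 181 in resistant and of 50.1, 63.8 and 57.2 in parental libraries. The co-receptor gene NRP1 fell by 0.45 ± 0.18 on the log2 scale in the authors' deposited table. These were the 1 higher and 1 lower of 3 tested genes, whose median log2 fold change was -0.17, and CSPG4, a proteoglycan that binds PDGF-AA, had a mean of 0. The third, THBS1, did not pass and had a mean normalized count of 2.59 by the authors' deposited table. Over all tested genes 13.3% were called higher and 14.8% lower.

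Adaptors and enzymes that dock on the activated receptor were called in both directions. By the authors' deposited table, 24 were tested, of which 6 were higher and 2 lower, a called share of 33.3%, and the other 16 did not pass; the median log2 fold change was 0.11. Among all tested genes the called share was 28.2%, and 41.5% among those with a mean normalized count of at least 50. The largest called rises at a mean count of at least 20 were those of RASA1, the RAS GTPase-activating protein (1.10 ± 0.23), the transcription factor STAT3 (0.97 ± 0.35) and phospholipase C gamma 1, PLCG1 (0.74 ± 0.19), and the falls those of PIK3R3, a regulatory subunit of PI 3-kinase (-1.10 ± 0.15), and the adaptor SHC1 (-0.43 ± 0.09), as log2 fold changes in the authors' deposited table. By the authors' deposited table, 10 genes that restrain the receptor were tested, 2 of them higher and 3 lower, and their median log2 fold change was -0.19. The ubiquitin ligase CBLB (1.47 ± 0.26) and the adaptor GRB10 (0.57 ± 0.18) rose, and the phosphatases ACP1 (-1.13 ± 0.07) and PTPN2 (-0.54 ± 0.16) and the ligase CBL (-0.50 ± 0.17) fell, as log2 fold changes in the authors' deposited table. The ubiquitin ligases CBL and CBLB, close relatives, thus changed in opposite directions.

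Genes that PDGF induces within minutes to hours in fibroblasts were called in both directions. Among 9 tested, the authors' deposited table had 1 higher and 3 lower, and their median log2 fold change was -0.72. Over all tested genes 13.3% were called higher and 14.8% lower, at a median of 0.02. The called share in either direction was 41.5% at a mean normalized count of at least 50. JUNB rose by 0.59 ± 0.11, while FOS fell by 4.23 ± 0.43, IER2 by 1.07 ± 0.10 and MYC by 0.72 ± 0.09, on the log2 scale in the authors' deposited table. These genes also answer to EGFR, and resistant cells alone were in an EGFR inhibitor, so the parts of drug and of PDGF receptors in their levels cannot be told apart.

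Markers of the cells in which PDGFRB is usually found were in part listed at 0. Beside the counts of markers called below, 13.3% of all tested genes were called higher and 14.8% lower. Of 14 mural cell markers, 4 (ABCC9, KCNJ8, HIGD1B and CSPG4, which is also among the extracellular partners) had a mean of 0. Among the 7 tested, the authors' deposited table had 3 higher and 1 lower, and their median log2 fold change was 3.10. The higher ones were the adhesion molecule MCAM (4.55 ± 0.16 on the log2 scale) and, at low counts, CNN1 and DES, and the lower one NOTCH3 (-1.26 ± 0.09), in the authors' deposited table. CNN1, a smooth muscle actin-binding protein gene, had 82 reads over the resistant and 2 over the parental libraries, and DES, an intermediate filament gene of muscle, had 26 over the resistant and 0 over the parental libraries. The median of 3.10 is the value of ACTA2, which had 13 reads over the resistant and 1 over the parental libraries. ACTA2 did not pass (adjusted p = 0.133 by DESeq2 in the authors' deposited table), so that median rests on a gene near the floor. Summed over the 13 mural markers other than MCAM, whose reads were not recovered, normalized counts were 352 to 406 in resistant and 825 to 830 in parental libraries, most of it NOTCH3. MCAM alone had fitted means of 952 in resistant and 40.6 in parental cells by the authors' deposited table. The sum without it therefore does not give the direction of all 14 markers together. Of 13 fibroblast markers, 7 (COL1A2, DCN, LUM, THY1, POSTN, PDPN and PRRX1) had a mean of 0. Of the 3 tested, the authors' deposited table had 1 higher and 1 lower, and their median log2 fold change was 0.57. That median is the value of COL6A3, which had 4 reads over the resistant and 2 over the parental libraries. COL1A1 was the higher one, with 94 reads over the resistant and 4 over the parental libraries, and FBLN1 fell by 2.35 ± 0.13 on the log2 scale in the authors' deposited table. The 13 fibroblast markers summed to 119 to 123 in resistant and to 457 to 490 in parental libraries as normalized counts, most of it FBLN1. EPCAM, an epithelial adhesion molecule, had fitted means of 7005 in resistant and 5664 in parental cells by the authors' deposited table, and KRT7, KRT8, KRT18 and KRT19 were also abundant in both groups. NKX2-1, a lung lineage factor, had a mean of 0. Of the 8 epithelial and lung adenocarcinoma markers, 7 were tested, and the authors' deposited table had 2 of them higher and 2 lower, at a median log2 fold change of -0.18. KRT7 (0.68 ± 0.06) and EPCAM (0.31 ± 0.05) were higher, and KRT8 (-0.65 ± 0.07) and KRT18 (-0.61 ± 0.07) lower, as log2 fold changes. KRT19, CDH1 and, at low counts, NAPSA did not pass. The part of other cell types in the levels of PDGFRB was not tested.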

How the data were processed

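Gene expression was measured in 6 bulk libraries of PC9 cells, 3 resistant and 3 parental. Libraries followed a modified bulk MARS-seq protocol, per the labels' protocols; the submitters' processing notes name cutadapt, STAR, HTSeq, DESeq2 and the build GRCh38 (hg38), and versions, collapsing of molecular barcodes and strand settings are not given in the sources used here. The authors' deposited table holds, per the file headers, a signal (the mean normalized count over libraries), a log2 fold change with its SE, a Wald score, a p-value and an adjusted p-value per gene. Whether the numbered replicates were separate cultures is not stated, so the p-values reflect the spread of these samples alone, possibly technical. Calls are those of the authors' DESeq2 Wald test (two-sided, Benjamini-Hochberg adjusted p under 0.05); the count test planned for values per library was replaced by this description. Members and gene lists were chosen with earlier results of these data known.

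Reads were recovered as follows. Where only 1 read was counted over all libraries, the mean depends on nothing but the size factor of its library; 6 such means recurred, 3 with folds above 0 (taken as resistant) and 3 below. The 3237 genes whose mean was under 1.6 but not 0 each matched exactly 1 whole-read combination within 2e-14, against 1.46e-08% expected by chance. For higher means, combinations matching the mean (relative tolerance 4e-15) were kept where a negative binomial fit with the deposited SE also gave the deposited log2 fold within 2e-05. That fold check left 1 combination for each of the 6 members with reads, with a largest mismatch of 2.93e-06, including PDGFB, where 29 combinations met the mean. Of the other 128 genes looked up, 117 were recovered and 11 had means too high for the search. In a simulation of 200 genes with a mean of 5 to 150, 199 were recovered and 0 were recovered wrongly. PDGFRB and PDGFB, with means of 327 and 378, lie above that range, so the simulation does not cover them. Library depth, from the summed means times the size factors, was about 2138099 to 5440233 reads. Group folds weigh libraries by the fit, so they differ from ratios of plain means for low counts. Low genes such as CNN1, DES and CSF1R were matched by the mean alone, which left 1 combination.

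Named genes are all members, up to 3 called rises and 3 called falls per list with a mean count of at least 20, and 3 genes nearest in fold to each called member. KITLG, CNN1, DES, COL1A1, CSF1R, the genes listed at or near 0, RPL10, RPL13, MTUS1, AC058822.1, SLC26A2, SYNPO and the receptor kinases were added after their values were seen. KRT19, CDH1, NAPSA, ACTA2 and COL6A3 were added in the same way. Promoters are RefSeq sequences of GRCh38.p14, and positions come from GENCODE 29 (GRCh38). Python 3.11.15, numpy 2.4.6, scipy 1.17.1 and pandas 2.3.3 were used.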

Additional observations from a re-analysis of the deposited data

How the results depend on the processing

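No paired analysis was possible because the recovered libraries carry no replicate numbers, and TMM scaling was not run because counts of all genes were not at hand. With folds centred on the median of genes with a mean count of at least 50 (a shift of 0.03), with adjustment over every gene with a p, and at an adjusted p under 0.01, the same count of members was called, 3 higher and 0 lower. Over all listed genes, 22 were called higher and 19 lower as deposited, and these settings gave 21 to 23 higher and 17 to 19 lower. Restricted to genes with a mean count of at least 50, and with p adjusted over those genes alone, 17 listed genes were higher and 20 lower. Leaving out each library moved the log2 ratio of mean counts from 7.86 to between 7.44 and 8.83 for PDGFRB, and to between 1.52 and 2.34 for PDGFD from 1.97. It stayed between -0.59 and -0.40 for PDGFA and between 1.02 and 1.10 for PDGFB; for PDGFRL it ran from -0.04 to 0.23 and for PDGFC from 0.02 to 0.28. No fitted group mean of a member with reads lay under the floor of 1, and at a 10 times wider tolerance all 7 members still had a match. Depth limits PDGFRB in parental cells, at 6 reads, and PDGFD, at 18 reads there.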

Other observations

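Among 15 genes for transcription factors that are known to bind or act on promoters of the family, 11 were tested, at a median log2 fold change of -0.03. The authors' deposited table had 1 higher and 2 lower, against 13.3% and 14.8% of all tested genes. The higher one was TWIST1, a mesenchymal regulator, with normalized counts of 21.6, 19.4 and 17.5 in resistant libraries and of 1.85, 5.80 and 4.61 in parental libraries, and a log2 fold change of 2.14 ± 0.60 in the authors' deposited table. KLF5 (-0.85 ± 0.16) and NFYC, a subunit of the CCAAT-binding factor NF-Y (-0.42 ± 0.12), were lower on the log2 scale in the authors' deposited table, while NFYA (0.09 ± 0.29) and SP1 (-0.03 ± 0.41) did not pass. TWIST1 had a mean count under 20 and was added after its values were seen.

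The resistant libraries did not rank the members alike. The library with the fewest PDGFD reads, 11, had the highest normalized counts of PDGFRB and of PDGFB, 671 and 538. With 3 libraries no relation between these genes was tested.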
